A study of Mus musculus with 14 samples.

Results

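The genes described here encode the 4 subunits of the AMPA receptor (Gria1, Gria2, Gria3 and Gria4) and 6 subunits of the NMDA receptor (Grin1, Grin2a, Grin2b, Grin2c, Grin2d and Grin3a). They were found by name in the gene table, where each symbol stood for the locus with the highest mean, and all 10 genes sought were found among 59796 loci. RNA-seq had been carried out on hippocampi of mouse embryos aged E16 to E18, in 14 libraries. Both models carry extra copies of mouse genes that are related to human chromosome 21, the chromosome present in an additional copy in Down syndrome. In 189N3 mice (3 libraries) the added segment is a bacterial artificial chromosome with the Dyrk1a kinase gene, and in Dp(16)1Yey/+ mice (4 libraries) it is the stretch of chromosome 16 from Lipi to Zfp295, which contains Dyrk1a too. Each model was compared with its own wild-type littermates (3 and 4 libraries), which carry no extra copy. The labels do not give the sex of the embryos or say whether a library came from 1 embryo, so p-values measure the spread between these libraries, which may be partly technical. None of the 10 genes lies in the added segments. Grin2a is on chromosome 16 (9567898 to 9995560, GRCm38), outside the triplicated stretch, which runs from 75540514 to 97962622. In the GENCODE vM21 annotation of that build the AMPA receptor genes were Gria1 on chromosome 11 (57011387 to 57330244, plus strand), Gria2 on chromosome 3 (80681450 to 80802835, minus strand), Gria3 on chromosome X (41400854 to 41678601, plus strand) and Gria4 on chromosome 9 (4417896 to 4796234, minus strand). The other NMDA receptor genes were Grin1 on chromosome 2 (25291181 to 25319187, minus strand), Grin2b on chromosome 6 (135713233 to 136173511, minus strand) and Grin2c on chromosome 11 (115249169 to 115267243, minus strand), with Grin2d on chromosome 7 (45831883 to 45878378, minus strand) and Grin3a on chromosome 4 (49661611 to 49845744, minus strand). All are protein-coding genes, and fragments were counted over their assembled exons.

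AMPA and NMDA receptors are the main receptors for fast excitatory transmission in the brain, and each is built from 4 subunits around a cation channel. AMPA receptors carry the rapid current at excitatory synapses, and the GluA2 subunit, made from Gria2, makes them nearly impermeable to calcium once its transcript has been edited. NMDA receptors need the GluN1 subunit, made from Grin1, and are joined by GluN2 or GluN3 subunits. GluN2B, made from Grin2b, prevails in the hippocampus before birth, and GluN2A, made from Grin2a, gains ground after birth.

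The 2 families descend from a common ancestor, and their coding sequences still share a short stretch in the third membrane segment, next to the channel gate. It is shown because it is the longest run of amino acids that was identical in the 10 proteins (7 residues, from the longest open reading frame of GENCODE vM21 transcripts), while the bases beneath it differ. Capitals mark the bases that differ from Gria2.

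Gria1: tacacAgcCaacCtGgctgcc
Gria2: tacacggctaacttagctgcc
Gria3: tacacTgcAaacCtTgctgcT
Gria4: tacacTgctaaTCtGgctgcA
Grin1: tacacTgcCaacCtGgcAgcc
Grin2a: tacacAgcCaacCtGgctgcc
Grin2b: tacacTgcCaacttagcCgcc
Grin2c: tacacggcCaaTCtGgcAgcc
Grin2d: taTacAgcCaaTCtGgctgcc
Grin3a: tacacAgcGaacttGgctgcT

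Between 3 and 6 of the 21 bases differed from Gria2. Over 1 transcript per gene, the longest run of identical bases between any pair of the 10 genes was 50, between Gria3 and Gria4, which is shorter than the sequenced reads of 100 bases.

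Promoter sequence (250 bases before to 50 after the start, RefSeq, GRCm38.p6) was at hand for Gria2, Gria4, Grin1, Grin2c and Grin2d. Those of Gria2, the most abundant of the 10 genes, and Grin1, the obligatory NMDA receptor gene, are shown 5′ to 3′ on the coding strand. In Gria2 (chr3:80802786-80803085, minus strand) the capitals mark a match, on the opposite strand, to GGACAGC, the right-hand part of the RE1 element bound by the repressor REST. In Grin1 (chr2:25319138-25319437, minus strand) they mark the box GGGCGG, which Sp1 binds.

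Gria2: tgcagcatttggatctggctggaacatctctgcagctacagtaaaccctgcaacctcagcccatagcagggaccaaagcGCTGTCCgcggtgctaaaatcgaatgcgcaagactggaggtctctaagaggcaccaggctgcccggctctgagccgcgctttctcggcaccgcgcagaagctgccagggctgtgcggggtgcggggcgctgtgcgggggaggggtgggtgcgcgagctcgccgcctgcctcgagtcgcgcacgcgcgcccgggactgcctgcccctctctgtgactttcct
Grin1: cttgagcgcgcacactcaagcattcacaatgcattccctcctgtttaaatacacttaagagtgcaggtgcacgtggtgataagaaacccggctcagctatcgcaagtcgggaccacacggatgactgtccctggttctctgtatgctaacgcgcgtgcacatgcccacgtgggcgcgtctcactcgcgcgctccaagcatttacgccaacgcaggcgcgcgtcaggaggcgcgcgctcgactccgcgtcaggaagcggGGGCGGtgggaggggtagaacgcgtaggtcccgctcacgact

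The letters GGACAGC was found on either strand in 6.6% of 32851 promoters of this length, and in 1 of the 5 at hand, that of Gria2. The left-hand part of RE1, CAGCACC (7.1% of promoters), had no exact match in any of the 5. Close to the marked stretch, however, the Gria2 promoter reads TAGCACC on the opposite strand, which differs from CAGCACC only in its first base. The Sp1 box was found in 35.7% of all promoters and in those of Grin1 and Grin2c. TATAAA (13.6%) and TGACGTCA, the cAMP response element (1.8%), were found in none of the 5. The Gria2 promoter was 65.7% G and C and the Grin1 promoter 60.7%, against a median of 52.7% over all promoters.

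The libraries held between 20809135 and 29098454 fragments, and values are given as normalised fragments, that is, fragments divided by 1 size factor per library. Several libraries stood apart from their groups. Littermate libraries 0 and 1 of the Dp(16)1Yey/+ line differed by 1.74 times the variance expected from counting alone and libraries 2 and 3 by 2.28 times, whereas other pairs within a group differed by 11.1 to 80.7 times, so that the 4 littermates formed 2 nearly alike pairs. Dp(16)1Yey/+ library 1 showed little extra dosage: the median of 85 genes of the triplicated stretch was 0.10 above the littermate mean on the log2 scale, against 0.40 to 0.69 in the other 3 libraries. Dyrk1a was higher in the 3 189N3 libraries (3938 to 5877 normalised fragments) than in their littermates (2126 to 2977), by 0.89 ± 0.24 (SE) on the log2 scale. In Dp(16)1Yey/+ libraries it was measured at 4781, 2124, 3600 and 3044 and in their littermates at 2488, 2397, 3171 and 3175, a difference of 0.22 ± 0.23 (unadjusted p = 0.36 by limma), with library 1 below every littermate. Hippocampal markers were detected in every library, and so were all 12 striatal and all 6 neocortical markers sought. The summed level of the striatal list ranged from 669 to 3079 normalised fragments, and in the littermates of Dp(16)1Yey/+ mice it was above 0 for all 12 genes in all 4 libraries and ranged from 780 to 3079.

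All 10 subunit genes were expressed, over a range of about 3 orders of magnitude. Levels can be compared between genes only per length, so normalised fragments were divided by the kilobases of merged exons (GENCODE vM21), a length that counts every annotated exon and is long for genes with long untranslated ends such as Grin2b (24.84 kb). On this scale Gria2 was highest in all 4 groups, at 1095 ± 144 per kb in littermates of 189N3 mice (SD, n = 3) and 916 ± 89.1 in littermates of Dp(16)1Yey/+ mice (SD, n = 4). Gria1 followed, with 723 ± 132 and 794 ± 8.40 per kb, and then Gria4, with 457 ± 76.4 and 320 ± 39.0 per kb. In both sets of littermates the libraries of these 3 genes did not overlap with one another.

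Below them the order was less clear. Gria3 had 193 ± 31.0 per kb in littermates of 189N3 mice and 112 ± 25.4 in those of Dp(16)1Yey/+ mice. Grin2b had 125 ± 11.0 and 142 ± 25.3 per kb, and the libraries of Gria3 and Grin2b overlapped in all groups except the littermates of 189N3 mice. Grin3a, a subunit that lowers the calcium current of NMDA receptors, had 97.4 ± 61.0 and 91.9 ± 66.3 per kb and overlapped with Grin2b in all 4 groups. Grin1 had 43.9 ± 10.9 and 59.1 ± 20.2 per kb. Grin2a had 10.5 ± 2.91 and 8.49 ± 0.64 per kb, and its libraries lay below those of Grin1 in every group.

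Grin2c, known from the cerebellum, and Grin2d, known from interneurons and the brainstem, were the lowest, with group means of 1.81 to 4.99 and 2.12 to 3.01 per kb, and they overlapped with each other in every group. Only 3 to 33 fragments of Grin2c and 4 to 42 of Grin2d were counted in a library, so their values carry a large counting error. Gria2 by contrast rested on 12349 to 23314 fragments per library.

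**Figure D1:**
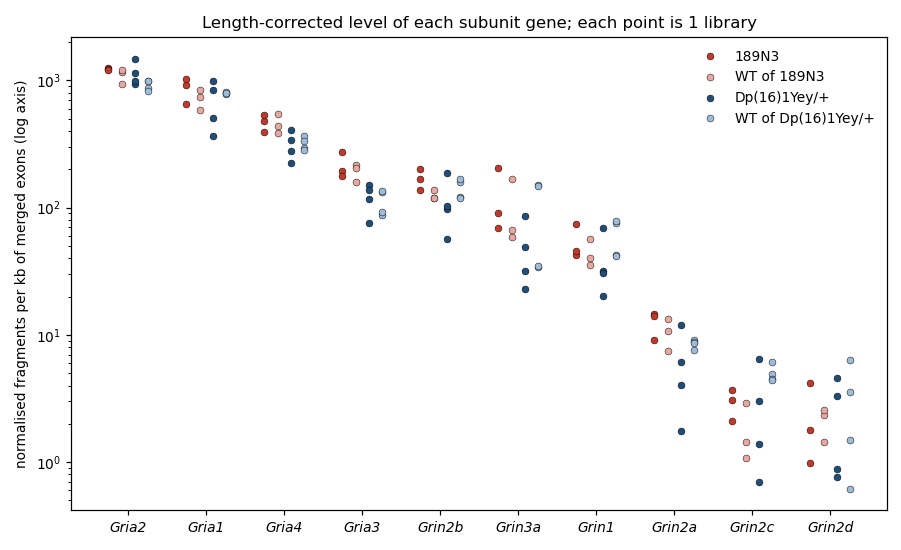
Normalised fragments per kb of merged exons for each subunit gene, on a log axis, with 1 point per library and colours for the 4 groups. Gria2, Gria1 and Gria4 are the highest 3 genes, and Grin2c and Grin2d lie lowest, between 0.62 and 6.48 per kb.

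Within the AMPA family, Gria2 made up 39.4% to 61.5% of the summed level per kb, Gria1 21.1% to 38.1%, Gria4 11.6% to 19.6% and Gria3 3.36% to 8.92%, over the 14 libraries. Within the NMDA family, Grin2b made up 36.6% to 60.1%, Grin3a 14.3% to 44.6% and Grin1 14.2% to 19.7%. Grin3a was thus the component with the widest share. For each fragment of Grin2a there were 12.4 to 44.1 fragments of Grin2b. These shares and ratios overlapped between each model and its littermates.

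The first comparison asked how the subunit genes differed in mice with an extra Dyrk1a gene alone. No locus of 35899 passed an adjusted p of 0.05 by limma (0% called), 672 loci (1.87%) had an unadjusted p under 0.05, and on the count tests edgeR called 0 and DESeq2 15. All 10 subunit genes passed the filter on low values. In 189N3 mice 9 of the 10 had a higher fitted mean than in littermates, against 43.8% of all loci tested, and Grin2d had a lower one, whose sign turned with edgeR, with DESeq2 and with a pseudocount of 10. The median of the 10 differences was 0.27 on the log2 scale, against -0.04 over all loci, but none had an unadjusted p under 0.05, and each adjusted p was 1.00 (limma, Benjamini-Hochberg over all loci). The count and the median rested in large part on 189N3 library 2, without which 6 of the 10 were higher, with a median of 0.08. Without littermate library 0 the median was 0.14 (8 higher) and without littermate library 2 it was 0.13 (9 higher).

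Gria2 was measured at 19306, 19020 and 18814 normalised fragments in the 189N3 libraries and at 14474, 17983 and 18627 in their littermates. The 189N3 libraries all lay above the littermates, the highest littermate by a narrow margin. The log2 difference was 0.17 ± 0.21 (SE, adjusted p = 1.00 by limma), and without littermate library 0 it was 0.06. Groups that do not overlap with the model higher were seen at 1.99% of all loci.

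Grin2b was measured at 3427, 4188 and 4966 normalised fragments in the 189N3 libraries and at 2949, 3421 and 2950 in their littermates. These groups did not overlap either, though 189N3 library 0 was nearly level with littermate library 1. The log2 difference was 0.42 ± 0.23 (SE, 95% interval -0.06 to 0.90), with an unadjusted p of 0.085 and an adjusted p of 1.00 by limma. For Gria2 and for Grin2b the exact two-sided permutation test gave p = 0.10, the smallest that 3 against 3 libraries can give.

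The other AMPA subunit genes overlapped with their littermates. Gria1 was measured at 3974, 5603 and 6211 in 189N3 libraries and at 4476, 5102 and 3522 in littermates, a log2 difference of 0.26 ± 0.25 that became 0.13 without 189N3 library 2 and 0.11 without littermate library 2. Gria3 differed by 0.13 ± 0.25 and Gria4 by 0.04 ± 0.23 (SE), and Gria4 turned to -0.02 under quantile normalization. Without 189N3 library 2 these genes differed by -0.053 and -0.059.

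Among the remaining NMDA subunit genes, Grin1 was measured at 409, 445 and 720 normalised fragments in 189N3 libraries and at 390, 545 and 343 in littermates, a log2 difference of 0.28 ± 0.28 (SE) that became 0.03 without 189N3 library 2 and 0.14 without littermate library 2. Grin3a had 845, 1106 and 2492 against 716, 2060 and 813. In each group 1 library was far above the others, and without 189N3 library 2 the difference of 0.32 ± 0.41 (SE) became -0.14. The same library, 189N3 library 2, held the highest value of its group for 7 of the 10 subunit genes and 40.8% of all loci, and littermate library 1 did so for 7 genes and 29.1% of all loci. Grin2a differed by 0.27 ± 0.28 (0.05 without littermate library 2) and Grin2c by 0.73 ± 0.44 on the log2 scale (0.45 without littermate library 1).

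The second comparison asked the same of the segment of chromosome 16. No locus of 36024 passed an adjusted p of 0.05 by limma (0% called), 1273 loci (3.53%) had an unadjusted p under 0.05, and edgeR called 0 loci and DESeq2 8. In Dp(16)1Yey/+ mice 8 of the 10 subunit genes had a lower fitted mean than in littermates, against 45.1% of all loci, and the median difference was -0.40 on the log2 scale, against 0.03 over all loci. All 6 NMDA subunit genes were lower, with a median of -0.75, whereas 2 of the 4 AMPA subunit genes were lower, with a median of 0.02. No subunit gene had an unadjusted p under 0.05, and adjusted p-values were between 0.91 and 0.96 by limma. All 6 NMDA subunit genes also stayed lower under each other scaling tried. Without library 1 of the model 6 of the 10 genes were lower, with a median of -0.13, and without library 0 there were 9, with a median of -0.71.

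Grin1 was measured at 672, 195, 306 and 299 normalised fragments in the Dp(16)1Yey/+ libraries (0 to 3) and at 408, 401, 730 and 756 in their littermates. In the model 3 of 4 libraries lay below every littermate, and library 0 lay between the lower and the higher pair of littermates. The log2 difference was -0.73 ± 0.36 (SE), with an unadjusted p of 0.065 by limma and p = 0.14 by exact permutation, where 0.029 is the smallest possible. Both tests, and this smallest value, count the nearly alike littermates as separate libraries.

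Grin2b was measured at 4654, 1400, 2411 and 2578 in the model and at 3002, 2954, 3934 and 4170 in littermates. Library 0 lay above and the other 3 below all littermates. The log2 difference was -0.46 ± 0.30 (SE, unadjusted p = 0.16 by limma).

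Grin2a was measured at 214, 31.7, 109 and 72.5 in the model, and its littermates kept to a narrow range of 136 to 163. Again library 0 lay above and the other 3 below all littermates, and the log2 difference was -0.82 ± 0.44 (SE, unadjusted p = 0.092 by limma). Grin2c was measured at 32.6, 3.53, 15.3 and 7.04 against 22.2 to 30.9, a log2 difference of -1.13 ± 0.52 (unadjusted p = 0.053 by limma).

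Grin3a was measured at 1054, 388, 284 and 599 in the model. Its littermates split by pairs, with 422 and 423 in libraries 0 and 1 and 1860 and 1806 in libraries 2 and 3. The log2 difference of -0.78 ± 0.55 (SE, adjusted p = 0.91 by limma) therefore rested on the second pair, and it was -0.42 without littermate library 2 and -0.43 without library 3. Grin2d ranged from 5.10 to 30.7 in the model and from 4.12 to 42.5 in littermates, and differed by -0.24 ± 0.71.

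**Figure D2:**
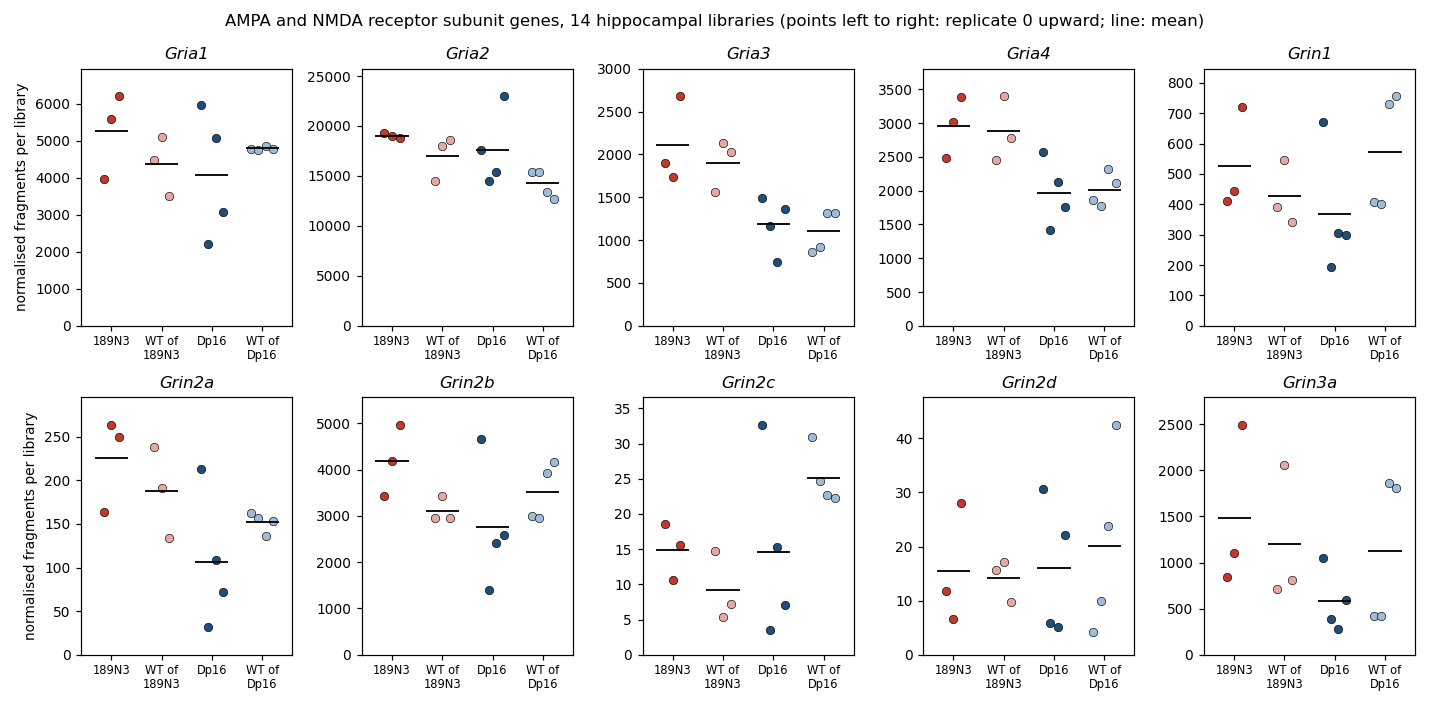
Normalised fragments of each subunit gene in the 14 libraries, with points in replicate order from 0 and a line at each group mean; the axes start at 0. Dp(16)1Yey/+ library 0 is the highest of its group for 9 of 10 genes and library 1 the lowest for 7.

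In the model, library 0 held the highest value for 9 of the 10 subunit genes (28.0% of all loci) and library 1 the lowest for 7 (26.0% of all loci). The differences moved with these libraries. Without library 0, Grin1 differed by -1.07, Grin2a by -1.25, Grin2b by -0.76 and Grin2c by -1.63 on the log2 scale, with adjusted p-values of 0.37 by limma. Without library 1, the library with little extra dosage, the same genes differed by -0.47, -0.35, -0.18 and -0.66, with adjusted p-values of 1.00. Grin2d turned to 0.07 without library 1, and 5 of the 6 NMDA subunit genes were then lower, with a median of -0.41. Averaging each nearly alike littermate pair cannot change a difference, because the mean of the pair means is the mean of the 4 libraries. It changes the p-values only, and Grin1 and Grin2a then had adjusted p-values of 1.00 by limma.

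**Figure D3:**
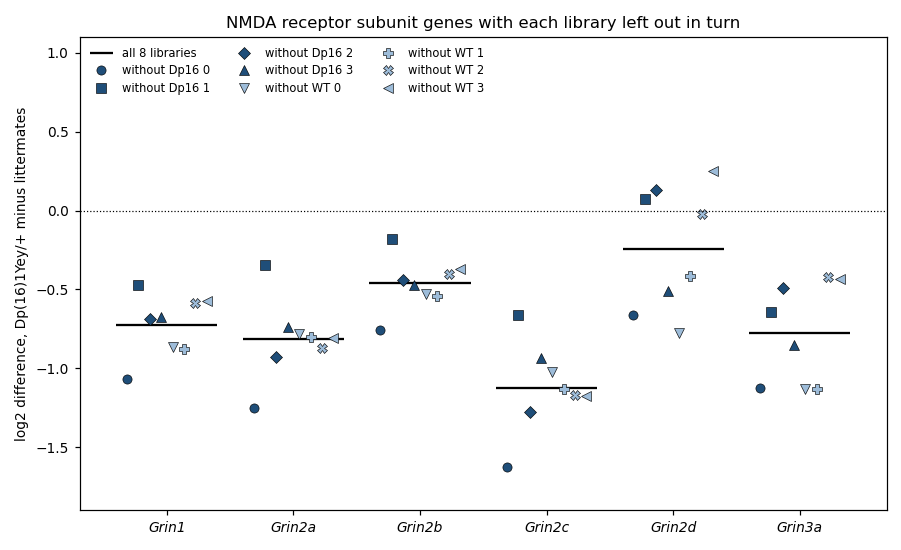
Log2 difference between Dp(16)1Yey/+ mice and littermates for the 6 NMDA subunit genes, with all 8 libraries (line) and without each library in turn (symbols). Grin1, Grin2a, Grin2b, Grin2c and Grin3a stay below 0 throughout, and Grin2d ranges from -0.78 to 0.25. The littermates form nearly alike pairs, so a littermate left out always has a near copy that stays in.

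Among AMPA subunit genes, Gria2 was measured at 17629, 14515, 15401 and 22990 in Dp(16)1Yey/+ libraries and at 15417, 15430, 13424 and 12727 in littermates. The model was higher by 0.29 ± 0.17 (SE, unadjusted p = 0.12 by limma) on the log2 scale, with both groups overlapping, and by 0.15 without library 3 of the model. Gria1 kept to 4746 to 4867 in the 4 littermates, the narrowest spread of the 10 genes there, and ranged from 2220 to 5972 in the model, a log2 difference of -0.34 ± 0.27. It was -0.08 without library 1, the one with little extra dosage, and -0.56 without library 0. Gria3 differed by 0.09 ± 0.24 and Gria4 by -0.06 ± 0.20.

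**Figure D4:**
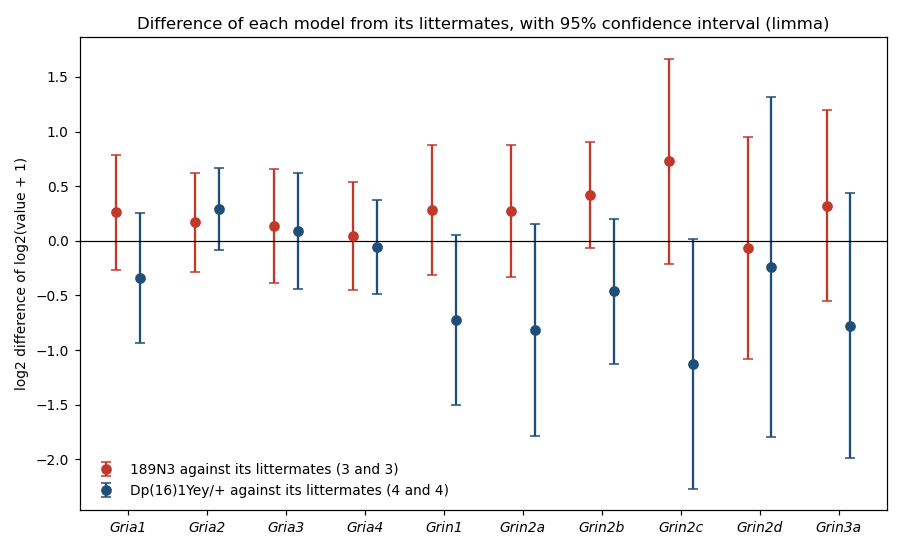
Log2 difference of each model from its littermates for the 10 subunit genes, with the 95% confidence interval of limma. Every interval includes 0; in Dp(16)1Yey/+ mice the 6 NMDA subunit genes lie between -1.13 and -0.24.

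The interaction tested whether the models differed from each other in their distance from littermates. No locus of 36045 passed by limma (0% called) or by edgeR, and 2.66% had an unadjusted p under 0.05. For 9 of the 10 subunit genes the difference was lower in Dp(16)1Yey/+ than in 189N3 mice, against 42.8% of all loci, and 2 of the 10 had an unadjusted p under 0.05. Grin2b differed between the models by -0.88 ± 0.41 (SE, unadjusted p = 0.047, adjusted p = 0.92 by limma) and Grin2c by -1.85 ± 0.74 (unadjusted p = 0.024, adjusted p = 0.92). Grin1, at -1.01 ± 0.51, had an unadjusted p of 0.065 by limma. The p-values of the interaction count the nearly alike littermates of Dp(16)1Yey/+ mice as separate libraries. With these pairs averaged, 427 loci instead of 957 had an unadjusted p under 0.05 by limma.

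The wild-type groups of the 2 lines could be compared too, though line, litter and library series cannot be told apart. Of 36045 loci, 38 (0.105%) passed by limma, and no subunit gene was among them, while 17.5% of loci had an unadjusted p under 0.05. Gria3 was measured at 1556 to 2131 normalised fragments in littermates of 189N3 mice and at 856 to 1320 in those of Dp(16)1Yey/+ mice, without overlap. The second group was lower by a log2 difference of -0.80 ± 0.25 (SE, unadjusted p = 0.0054, adjusted p = 0.14 by limma). Gria3 is on the X chromosome, and Xist, the RNA that silences one X chromosome in females, ranged from 88.4 to 13036 and from 4096 to 14803 in these groups. The part of embryo sex in the Gria3 values was not tested. Gria4 was lower by -0.51 ± 0.20 (unadjusted p = 0.024) and Grin2c higher by 1.46 ± 0.53 (unadjusted p = 0.013, adjusted p = 0.18 by limma). With wild-type libraries only in the fit, Grin2c passed (adjusted p = 0.047), and Gria3 and Gria4 had adjusted p-values of 0.052 and 0.075 by limma. That fit called 1340 of 36045 loci. Like the fit of all 4 groups, it counted the nearly alike littermates of Dp(16)1Yey/+ mice as separate libraries. With these pairs averaged in the fit of all 4 groups, 3066 loci instead of 6298 had an unadjusted p under 0.05 by limma.

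In bulk tissue, fewer cells of a type and less RNA per cell cannot be told apart, so marker lists were read beside the subunits. Dp(16)1Yey/+ library 1, the lowest of its group for Grin1, Grin2a, Grin2b and Grin2c, had the highest mean of the 9 progenitor markers in its group (11.22 on the log2 scale, against 10.49 to 11.13) and the lowest mean of the 7 neuron markers (11.82, against 11.97 to 12.66). Its 4 astrocyte markers had a mean of 7.19, against 7.93 to 9.24. Its hippocampal mean was the lowest too (8.44, against 8.67 to 9.55). Its striatal mean (6.44, against 4.63 to 6.16) and erythroid mean (13.15, against 10.29 to 12.07) were the highest. By summed level its neuron markers were not the lowest, at 98351 normalised fragments against 94574 in library 3. Littermate libraries 2 and 3 of that line, in which Grin3a was more than 4 times as high as in libraries 0 and 1, had striatal marker means of 7.56 and 7.67, against 4.24 and 4.71. Interneuron markers stood at 8.69 and 8.80 there, against 7.14 and 7.09. The part of these cell types in the subunit values was not tested.

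**Figure D5:**
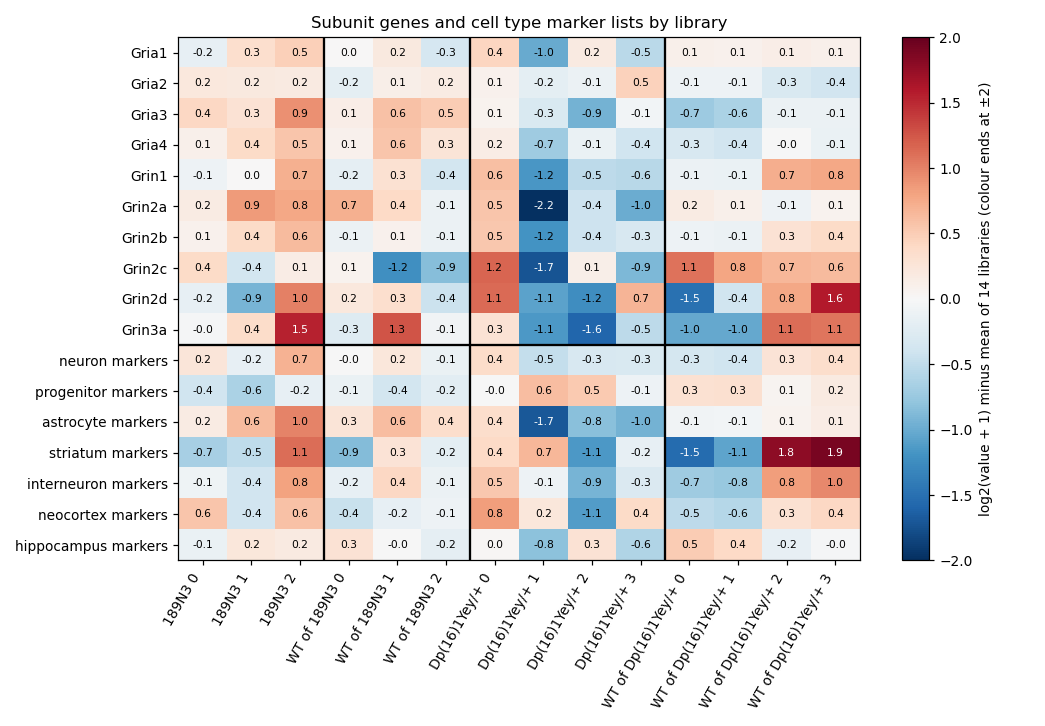
Log2 deviation of each subunit gene and of 7 marker list means from the mean of the 14 libraries, by library (colours end at 2 in either direction). Dp(16)1Yey/+ library 1 is low for all 6 NMDA subunit genes. Grin3a is high in the 3 libraries with the highest striatal means, and also in littermate library 1 of the 189N3 line (2060 normalised fragments, striatal mean 6.04), and low in Dp(16)1Yey/+ library 1 (388, striatal mean 6.44).

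Genes whose profile over the 14 libraries was nearest to a subunit were sought among named loci, by the root mean square difference of centred log2 values. Nearest to Gria1 were Slc1a1, a neuronal glutamate transporter (0.11), and Frrs1l, an AMPA receptor assembly factor (0.12), and then AK150559 (0.12). Nearest to Gria2 were Nlgn1, a synaptic adhesion molecule (0.13), Atp11b (0.15) and Ccdc82 (0.16). Gria3 was near to B3galt1 and Lrrtm2 (each 0.12). Gria4 was nearest to St8sia3 (0.10), Lmbrd1 (0.10) and Lgi1 (0.11).

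Grin1 was near to Ptprn2 (0.11) and Pcdh8 (0.12), and Grin2b was nearest to Crim1 (0.13), Unc80 (0.14) and Mast4 (0.14). Grin3a was nearest to Cbln4 (0.21), Vsnl1 (0.22) and Htr7, a serotonin receptor (0.22), and Grin2a to Slc22a8 (0.19), Cybrd1 (0.21) and Zdhhc23 (0.23). For the rare genes the smallest difference was 0.45 for Grin2c (nearest Nptx1, Slit3 and Tmem200c) and 0.41 for Grin2d (nearest Osbpl10, Kcnk3 and Fam131c). Such differences grow with the spread of the subunit gene itself. By the same measure this spread was 0.86 for Grin2c and 0.93 for Grin2d, against 0.23 for Gria2. The distances are therefore not comparable between subunit genes. Libraries share depth and tissue makeup across genes, so likeness of profile is a description of these libraries.

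Other genes of glutamate signalling were described by lists of receptors, auxiliary proteins, scaffolds, editing enzymes and transporters. Of the 57 genes tested in these 6 lists, 52 were higher in 189N3 mice than in littermates (43.8% of all loci), with a median of 0.23, and 52 were lower in Dp(16)1Yey/+ mice (45.1% of all loci), with a median of -0.35 on the log2 scale. No gene had an adjusted p under 0.05 in either model. In 189N3 mice 1 of the 57 had an unadjusted p under 0.05 by limma (higher), against 1.87% of all loci in either direction. In Dp(16)1Yey/+ mice 2 of the 57 did (lower), against 3.53%, so these counts were close to the shares over all loci. Without 189N3 library 2, 31 of the 57 genes were higher in that model, with a median of 0.04, so that this library carried most of the count and the median. In Dp(16)1Yey/+ mice 49 to 54 of the 57 were lower whichever library was left out, with medians from -0.59 without library 0 to -0.19 without library 1. A littermate left out there still had a near copy in the fit. The lists were drawn up with earlier results of these libraries known, and the same libraries set the values of subunits and lists.

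Among other ionotropic receptor genes, 5 of 7 were higher in 189N3 mice, where Grik3 had the smallest p (0.50 ± 0.27, unadjusted p = 0.084 by limma), and 6 of 7 lower in Dp(16)1Yey/+ mice. Grid1, the delta receptor GluD1, was measured at 352, 118, 168 and 165 normalised fragments there and at 217, 221, 451 and 506 in littermates, a log2 difference of -0.81 ± 0.37 (SE, unadjusted p = 0.0495, adjusted p = 0.91 by limma). Grik1, a kainate receptor gene, lies within the triplicated stretch, where the median difference of 85 genes was 0.42. Its own values were 747, 261, 502 and 637 against 324, 349, 731 and 684, and the difference of 0.04 ± 0.36 turned to -0.01 with DESeq2.

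Metabotropic receptors signal through G proteins. In 189N3 mice 6 of 7 were higher and in Dp(16)1Yey/+ mice all 7 were lower, with medians of 0.35 and -0.74 on the log2 scale. Grm3 was measured at 2556, 1986 and 3122 in 189N3 mice and at 1067, 1746 and 1948 in littermates. Here the groups did not overlap, and the difference was 0.71 ± 0.27 (SE, unadjusted p = 0.020, adjusted p = 1.00 by limma). Grm4 was lower in Dp(16)1Yey/+ mice by -0.85 ± 0.36 (unadjusted p = 0.037, adjusted p = 0.91), at 16.1 to 26.7 against 21.8 to 61.7.

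Auxiliary proteins bind AMPA receptors and set their gating and delivery to the surface. Of 16 tested, 15 were higher in 189N3 mice (median 0.23) and 16 lower in Dp(16)1Yey/+ mice (median -0.32). The smallest p-values were those of Cacng5 in 189N3 mice (0.43 ± 0.26, unadjusted p = 0.11) and Cpt1c in Dp(16)1Yey/+ mice (-0.36 ± 0.18, unadjusted p = 0.062 by limma). Of 18 scaffold and trafficking genes, 17 were higher in 189N3 mice and 16 lower in Dp(16)1Yey/+ mice. Dlg2, the scaffold PSD-93, was the nearest to the threshold in the former (0.39 ± 0.23) and Camk2b in the latter (-0.81 ± 0.41, unadjusted p = 0.077 by limma).

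Of the enzymes that edit Gria2 RNA, Adarb1 and Adar were both higher in 189N3 mice (0.23 ± 0.27 for Adarb1) and both lower in Dp(16)1Yey/+ mice (-0.46 ± 0.26 for Adar). Editing itself cannot be read from these tables. Of 7 genes of glutamate supply and clearance, all 7 were higher in 189N3 mice (Slc17a7, 0.62 ± 0.38) and 5 lower in Dp(16)1Yey/+ mice (Slc17a8, -0.80 ± 0.43).

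Marker lists of cell types were described in the same way. In 189N3 mice 7 of 7 neuron, 6 of 6 neocortex, 9 of 11 striatum, 4 of 7 hippocampus and 5 of 9 interneuron markers were higher, and 8 of 9 progenitor markers lower. Without 189N3 library 2 the directions turned for neuron (4 of 7 lower, median -0.03), striatum (7 of 10 lower, -0.36) and interneuron markers (7 of 9 lower, -0.15). Drd1 (1.02 ± 0.30, unadjusted p = 0.0042) and Rorb (0.83 ± 0.32) had unadjusted p-values under 0.05 by limma, whereas Syn1 (0.59), Nr3c2 (0.31), Npy (0.50) and Hes5 (-0.40) did not. All 4 erythroid markers were lower with unadjusted p-values under 0.05, Hbb-bt by -1.53 ± 0.24 (adjusted p = 0.14), Hbb-bs by -1.35, Hba-a2 by -1.22 and Alas2 by -1.03. In Dp(16)1Yey/+ mice 4 of 7 neuron, 6 of 7 hippocampus, 10 of 12 striatum, 7 of 9 interneuron, 4 of 4 astrocyte and 3 of 3 oligodendrocyte precursor markers were lower, whereas 4 of 6 neocortex and 5 of 9 progenitor markers were higher. Without littermate library 3, 3 of 12 striatum and 3 of 9 interneuron markers were lower, with medians of 0.06 and 0.03, and without littermate library 2 the striatum median was 0.04 (5 lower). Neurod6 was higher (0.60 ± 0.19, unadjusted p = 0.0084), and Wfs1 (-0.72 ± 0.31) and Htr2c (-1.13 ± 0.36), the latter of the choroid plexus list, were lower with unadjusted p-values under 0.05 by limma. Gfap (-1.63), Adora2a (-1.02), Slc32a1 (-1.01) and Cspg4 (-0.60) had larger p-values, and all 4 erythroid markers were higher (Hbb-bs, 1.25). Microglial, endothelial and choroid plexus lists had medians of 0.04, 0.04 and 0.01 in 189N3 mice (Ttr, 0.39) and of -0.22, -0.45 and -0.17 in Dp(16)1Yey/+ mice.

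The isoform table gives estimated shares of each locus, and 42 assembled isoforms belonged to the 10 genes. Of these 33 could be tested in 189N3 mice and 34 in Dp(16)1Yey/+ mice. None passed an adjusted p of 0.05 by limma in the main fit, while 22 of 60141 isoforms (0.0366%) and 13 of 60652 (0.0214%) passed over the whole table. At an unadjusted p under 0.05 there were 2 in 189N3 mice, against 2.56% of all isoforms, and 6 in Dp(16)1Yey/+ mice, against 3.48%.

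Gria2 RNA was spread over several isoforms, of which uc008poe.1 had the largest mean share (31.0%). One of them, uc008pob.1, was estimated at 1988, 1018, 0.473 and 204 normalised fragments in Dp(16)1Yey/+ libraries and at 0.252, 0.109, 2118 and 2225 in littermates. Its share of Gria2 thus ran from 0.001% to 34.7% over the 14 libraries, and a value near 0 can be a failed estimate. A second, uc008poc.1 as annotated, was at 1233, 1282, 1617 and 2376 in Dp(16)1Yey/+ mice and at 1040, 1181, 704 and 813 in littermates. The log2 difference of this isoform was 0.78 ± 0.26 (unadjusted p = 0.016, adjusted p = 0.95 by limma).

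Gria1 was almost wholly uc007izs.3 (93.6% of the gene on average). Its minor isoform uc029rls.1 was at 0.40 or below in the 3 189N3 libraries and at 39.9 to 66.1 in their littermates (adjusted p = 0.16 by limma), but also below 0.04 in all 4 littermates of the Dp(16)1Yey/+ line. For Gria3, uc009tam.3 prevailed (78.7%), and the minor uc009tal.3 was at 0.03 to 60.4 in Dp(16)1Yey/+ mice and below 0.01 in all 4 littermates (unadjusted p = 0.017). Gria4 was mainly uc009obp.2 (56.6%). For these isoforms, near 0 in a whole group, the fitted difference depends on the pseudocount and is not given.

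Of the NMDA subunit genes, Grin2b divided into uc009elq.1 (47.8%) and a variant assembled from it (41.2%), and only the variant had an unadjusted p under 0.05 in Dp(16)1Yey/+ mice (-0.93 ± 0.34, unadjusted p = 0.026 by limma). It was measured at 1612, 596, 623 and 765 there and at 1188, 1415, 1624 and 2193 in littermates. Grin1 was led by uc008irk.2 (43.2%), and uc008iri.2 was at 63.2, 52.0 and 108 in 189N3 mice and at 136, 114 and 130 in littermates, a log2 difference of -0.83 ± 0.32 (unadjusted p = 0.041). A pair of minor Grin1 isoforms assigned to uc008irh.2 lay at 0.00 to 13.5 in Dp(16)1Yey/+ mice and at 11.3 to 64.2 in littermates. Grin2c was mainly uc011yhk.1 (72.7%, -1.32 ± 0.56 in Dp(16)1Yey/+ mice, unadjusted p = 0.045). Grin2a was mainly a variant assembled from uc007ydc.1 (95.8%) and Grin3a uc012ded.2 (77.2%), and Grin2d had 1 isoform.

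Loci that the deposited map places on the strand opposite to a subunit gene were found for 6 of the 10. Their summed fragments came to 80.4% of those of the gene itself for Gria1, 68.3% for Gria2, 101% for Gria3, 404% for Gria4, 75.2% for Grin2a and 357% for Grin2b, and none were found for Grin1, Grin2c, Grin2d or Grin3a. At Grin2b they summed to 14849 ± 1795 normalised fragments in 189N3 mice and 11756 ± 457 in littermates (SD, n = 3 each), and to 10341 ± 3188 in Dp(16)1Yey/+ mice and 11689 ± 291 in littermates (SD, n = 4 each). The libraries were stranded, but the strand setting of the counting is not given in the sources used here, so values of these 6 genes may include fragments of overlapping transcripts.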

How the data were processed

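RNA had been sequenced from embryonic hippocampi in 14 libraries of 4 groups, taken from the sample labels, with 20809135 to 29098454 fragments each. According to the methods, libraries were stranded total RNA (the labels list polyA RNA), read as pairs of 100 bases. The authors aligned reads with TopHat and Bowtie to mm10, assembled them with Cufflinks and quantified the merged assembly while correcting for sequence bias and for reads with several matches. Each signal value deposited for a gene is its number of fragments over a size factor of that library, 1 fragment being worth 0.816 to 1.21 units, and at least 99.9% of nonzero values were whole fragments within 0.05. The signal values in the deposited isoform table are estimated shares on the same scale. Every column of values belonged to a sample of the series.

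Loci were named through the deposited map by matching each to the map locus whose isoforms sum to it in all 14 libraries, allowing for transcript numbers shifted by up to 11. In this way 50872 loci were matched and 19292 named. Values were compared as log2(value + 1) in limma 3.58.1 (R 4.3.3) with an intensity trend, for loci whose mean in the libraries compared was 10 or more, with Benjamini-Hochberg adjustment over all loci at 0.05. Differences thus understate changes of low genes. The interaction and the comparison of wild types used 1 fit of all 4 groups. Single genes were also tested by exact permutation (Python 3.11.15, SciPy 1.17.1). The plan had named a count test for raw counts. Because values were scaled, limma became the main test, and edgeR 4.0.16 and DESeq2 1.42.0 were run on the recovered fragments.

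The members, the gene lists, the tests and the alternatives were chosen with earlier results of these data known. All 10 members were named, as were list genes with an unadjusted p under 0.05 or else the smallest p of the list in each model, Grik1, Dyrk1a, the 3 nearest profiles of each member, and isoforms with an unadjusted p under 0.05 or the largest share. Adarb2, Aif1 and Hba-a1 were not matched to a row. Some genes that this rule named are not reported here. Alternatives were pseudocounts of 0.1 and 10, the filter removed or raised to a mean of 100, other scalings, named loci alone, a replicate block, nearly alike libraries averaged and each library left out in turn. On simulated data with a log2 change of 1.5 and a dispersion of 0.03, limma recovered 92% of changed genes where 189N3 mice and littermates were simulated (35854 genes), 95.8% for Dp(16)1Yey/+ mice (35981 genes), 72.7% for the interaction (36020 genes) and 95.1% between wild types (36034 genes). The largest fitted difference of a subunit gene from littermates was smaller, at -1.13 (Grin2c in Dp(16)1Yey/+ mice). Smaller changes and wider spreads between libraries were not simulated, so these shares do not apply to them.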

Additional observations from a re-analysis of the deposited data

How the results depend on the processing

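No subunit gene passed an adjusted p of 0.05 in either model or in the interaction under any alternative run. Between wild types 1 did under 1 alternative, Grin2c with wild-type libraries only (adjusted p = 0.047 by limma), where 1340 of 36045 loci passed. Among isoforms, uc029rls.1 of Gria1 in 189N3 mice had a smallest adjusted p of 0.029 by limma over the alternatives. Of 276 subunit values of the 2 models under alternatives that kept all libraries, 272 kept their direction and 4 turned: in 189N3 mice Gria4 under quantile normalization (-0.020) and Grin2d with a pseudocount of 10 (0.0021), edgeR (0.052) and DESeq2 (0.14). Many of the 272 were fixed in advance and do not measure stability. Changing the filter, the intensity trend or the set of loci leaves the fitted difference of a gene as it was. So do the joint fit of 4 groups, the replicate block and the averaging of pairs. Leaving out 1 library, log2 differences in 189N3 mice ran from -0.053 to 0.26 for Gria3, -0.065 to 0.17 for Gria4, -0.59 to 0.39 for Grin2d and -0.14 to 0.80 for Grin3a. In Dp(16)1Yey/+ mice they ran from -0.033 to 0.30 for Gria3, -0.20 to 0.087 for Gria4 and -0.78 to 0.25 for Grin2d. The number of AMPA subunit genes that were higher in 189N3 mice ran from 2 to 4, with 2 without 189N3 library 2 or littermate library 0. Grik1 ran from -0.36 to 0.20 in 189N3 mice and from -0.16 to 0.35 in Dp(16)1Yey/+ mice (-0.0067 with DESeq2). Ttr in 189N3 mice was -0.91 with edgeR and -0.89 with DESeq2, and ran from -0.61 to 2.23.

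Counts of called loci moved more. In 189N3 mice 0 became 3 with median-ratio size factors, 15 with DESeq2 and 72 with the replicate block, and ran from 0 to 28 without 1 library (28 without littermate library 1). In Dp(16)1Yey/+ mice 0 became 8 with DESeq2 and ran from 0 to 3 (3 without library 1), and the replicate block gave 0. The interaction ran from 0 to 1 (1 without Dp(16)1Yey/+ library 1). The 38 loci between wild types became 18 with a mean of at least 100, 112 under quantile normalization, 1340 with wild-type libraries only, 71 with the replicate block and 13 with nearly alike libraries averaged, and ran from 15 without littermate library 2 of the 189N3 line to 318 without 189N3 library 2. The 22 isoforms in 189N3 mice became 3 and 14 with pseudocounts of 0.1 and 10, 172 without a filter, 0 with a mean of at least 100 and 0 with the replicate block, and ran from 0 to 12. The 13 isoforms in Dp(16)1Yey/+ mice became 45 without a filter, 0 with a mean of at least 100 and 0 with the replicate block, and ran from 4 to 43. The causes were not tested. Replicate numbers are shared between groups by name only: deviations of same-numbered libraries correlated between -0.45 and -0.03, so the numbers were not taken to pair the samples. Counting error limits Grin2c and Grin2d, with at most 33 and 42 fragments in a library.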
